A study of Mus musculus with 2 samples.

Results

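Naf1 and Khdrbs1 are mouse genes that each held a single, strongly enriched peak of N4-acetylcytidine (ac4C) in the uterus. Their peaks were those whose summit lay in the RefSeq GRCm38 span of either gene, introns included. This gave 2 peaks of the 21192 in the list, 1 in each gene. The genes had been picked from this same list for the fold enrichment of these peaks, so their fold enrichment and everything measured with it is given as a description, with no test. They are set beside the 2626 other protein-coding genes that held exactly 1 peak, counted over summits that lay in a single protein-coding gene. Such single-peak genes made up 2628 of the 6367 protein-coding genes with a summit of this kind. With summits shared between genes counted too, 6717 protein-coding genes held a peak, and 2558 of the 2628 still held exactly 1.

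ac4C is cytidine with an acetyl group on the base. In mammals it is written by the acetyltransferase NAT10, first known from ribosomal and transfer RNA and studied in mRNA for its part in stability and translation. Naf1 encodes an assembly factor of the H/ACA ribonucleoproteins, the particles that guide pseudouridylation of ribosomal and spliceosomal RNA and that also hold the telomerase RNA. NAF1 binds the pseudouridine synthase dyskerin early in assembly and is later replaced by GAR1. Khdrbs1 encodes SAM68, an RNA-binding protein of the STAR family with a KH domain, which acts in alternative splicing and is a substrate and adaptor of Src family kinases. Female mice without SAM68 are subfertile.

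The tissue was whole uterus, taken on gestational day 4 from mice described as wild-type. There was 1 library of polyA RNA pulled down with an ac4C antibody and 1 input control library from the same kind of tissue. Strain, age and the number of animals behind each library were not given in the sources used here. With 1 library a group there is no replicate check of any value, no test between groups, and no SD. In bulk tissue, fewer cells that carry a transcript and less of it per cell cannot be told apart. The list gave for each peak a fold enrichment over the background at the summit, as calculated by the authors' peak caller, with its p and q. The number of fragments at each summit was recovered from these values for 21192 of 21192 peaks. Its median was 22 over a median background of 2.63 fragments, and the fold enrichment had a median of 5.58. Of 19 genes fixed as markers of uterine epithelium, stroma and myometrium or as steroid receptors, 18 held a peak, and Epcam, of the epithelium, held none. Over all protein-coding genes, 30.7% held a summit in their span. Among 3 markers of other cells, the endothelial gene Pecam1 held 4 peaks, and the leukocyte gene Ptprc and the macrophage gene Adgre1 held none.

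Naf1 (NCBI gene 234344) spans 30.6 kb of chromosome 8, from 66859943 to 66890564. Its peak ran over 789 bp, chr8:66860271-66861059, with the summit at 66860698. At that point 80 fragments of the pull-down (exact Poisson 95% interval 63.4 to 99.6) stood over a background of 0.438 fragments. The authors' fold enrichment was 56.3 (95% interval 44.8 to 69.9), with a −log10 q of 143. It was the highest of the 2628 single-peak genes and the third highest of all 21192 peaks. These intervals, here and below, cover counting error of the pull-down only and take the background as known.

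Khdrbs1 (NCBI gene 20218) spans 41.5 kb of chromosome 4, from 129702380 to 129743878. Its peak was 922 bp wide, chr4:129741365-129742286, with the summit at 129742039. The summit also held 80 fragments, over a background of 0.875 fragments. The fold enrichment was 43.2 (34.4 to 53.6) and the −log10 q 120. Khdrbs1 ranked 3 among the single-peak genes by fold enrichment and 15 among all peaks. No other gene of any kind in the table covered the summit of either peak.

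The summits of Naf1 and Khdrbs1 thus had the same depth, with a difference of 0 fragments. Their fold enrichments differed by a ratio of 1.30, which came from the background alone. Background values in the list were often whole multiples of 0.438 fragments, in 13257 of 21192 peaks (62.6%) when a miss of 0.005 of a step was allowed. Naf1 stood at 1 such step and Khdrbs1 at 2. With 1 step more, the fold enrichment of Naf1 would be 43.2, the value of Khdrbs1. With 1 step less, that of Khdrbs1 would be 56.3, the value of Naf1. What a step stands for was not given. If it were a single input fragment, the exact Poisson 95% interval would be 0.0253 to 5.57 for a count of 1 and 0.242 to 7.22 for a count of 2. These intervals overlap, as do those of the fold enrichments, so the order of the pair rests on 1 step of background.

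The size of each fold enrichment also depended on the pseudocount of 1 that the caller's values carry on both sides. Fragments over background with no pseudocount gave 183 for Naf1 and 91.4 for Khdrbs1. With a pseudocount of 5 the values were 15.6 and 14.5. The rank of Naf1 among single-peak genes was 2 under both of these choices. Khdrbs1 ranked 9 with no pseudocount and 3 with the larger one. Both genes stayed near the top, whereas the factor by which they exceeded background did not hold from one convention to the next.

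**Figure D1:**
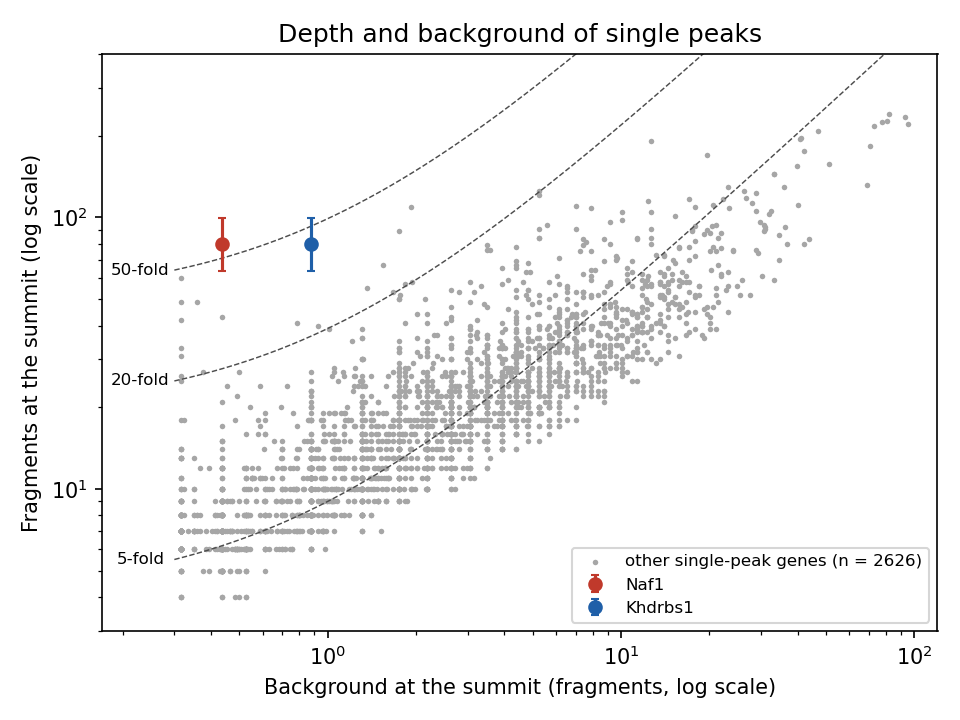
Fragments at the summit against background at the summit for 2628 single-peak genes, both on log scales, with Naf1 and Khdrbs1 in colour. Bars are exact Poisson 95% intervals of the fragment number, dashed lines join points of equal fold enrichment, and both genes lie at 80 fragments, with deeper summits of other genes only at higher backgrounds.

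Deep summits and low backgrounds seldom occurred together in the list. The single-peak genes had a median of 17 fragments (interquartile range 10 to 28) over a median background of 2.19. Only 82 of the 2628 reached 80 fragments (3.12%, Wilson 95% interval 2.52 to 3.86%). The background of these 82 had a median of 20.8 fragments and reached 95.4, and their fold enrichment had a median of 4.55. Backgrounds below 1 fragment were common, in 744 genes (28.3%). At the pair's own depth of 80 fragments or more, a background below 1 was found in the 2 genes themselves, and a background below 2 in 4 genes. Fold enrichment is made of these same values and chose the pair, so this describes the choice. Over all 21192 peaks, 3 summits had at least 80 fragments over a background below 1. The remaining one, on chromosome 2 from 98666453 to 98667313, lay in no protein-coding gene and had 81 fragments over 0.438, which gave 57.0. It is named after its values were seen. Reads were not traced to single copies for this peak or for the pair.

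Peaks with the same number of fragments show how far the background decides the fold enrichment. In the whole list 27 peaks had 80 fragments at the summit, the pair included. Their backgrounds ran from 0.438 to 42.0 with a median of 8.32. Fold enrichment over these 27 ran from 1.88 up to the 56.3 of Naf1, with a median of 8.69. The stromal transcription factor gene Hand2 was among them, at 80 fragments over 3.63 and 17.5-fold.

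Peaks with the same background show how far the depth decides it. At the background of Naf1 there were 564 other peaks, with a median of 8 fragments (interquartile range 7 to 11). Of these, 117 were in other single-peak genes, where the deepest summit had 43 fragments. At the background of Khdrbs1 there were 818 other peaks, with a median of 11 fragments (9 to 15) and at most 51. The 144 of them in single-peak genes reached at most 27 fragments. At equal background the fold enrichment is set by the fragments, so the place of the pair in these groups follows from how the genes were chosen.

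Both peaks were also wide for single-peak genes, though less so for peaks of their depth. The median width over the single-peak genes was 301 bp (interquartile range 222 to 443 bp). Over the 27 peaks of the whole list with 80 fragments at the summit, the pair included, it was 740 bp. Naf1 at 789 bp was wider than 2411 of the 2628, and Khdrbs1 at 922 bp wider than 2470, at ranks 214 and 158. With peaks of a −log10 q of at least 10 only, which left 1836 single-peak genes, their ranks were 380 and 278. Other single peaks of like width were far less enriched, which follows from the choice of the pair on fold enrichment. Among the 88 single-peak genes within 10% of the width of Naf1, the median was 26 fragments over 3.46 and a fold enrichment of 6.41 (interquartile range 4.76 to 8.25). Apart from the pair, the highest of these was Elp5, which encodes a subunit of the Elongator complex, at 19.9. Within 10% of the width of Khdrbs1 there were 75 genes, with a median of 30 fragments, a background of 3.06 and a fold enrichment of 7.84 (4.85 to 10.2). The highest there was H1f10, a linker histone gene, at 18.5. Elp5 and H1f10 are named after their values were seen.

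**Figure D2:**
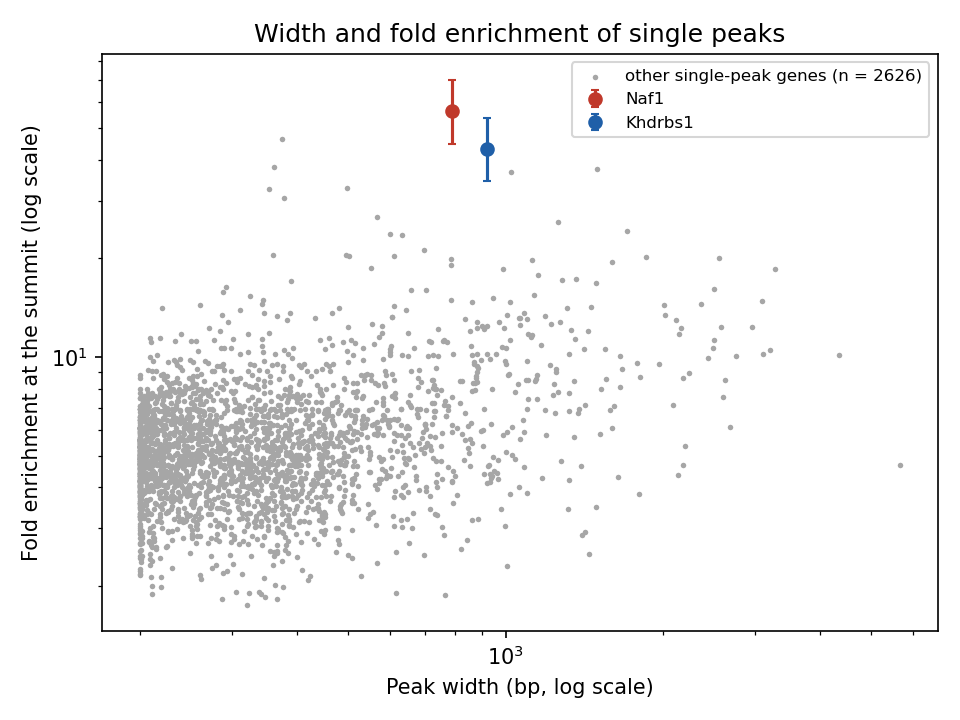
Fold enrichment at the summit against peak width for 2628 single-peak genes, both on log scales. Bars on Naf1 and Khdrbs1 are 95% intervals from counting error, and the pair lies above every other single peak wider than 500 bp.

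In shape the peaks differed a little. The summit of Naf1 lay 427 bp from the lower edge of its peak, at 54.1% of the width. That of Khdrbs1 lay 674 bp from the lower edge, at 73.1%, so the longer flank pointed into the gene. Each peak took up a small share of its gene span, 2.58% in Naf1 and 2.22% in Khdrbs1.

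Both peaks lay near an end of the gene span. The summit of Naf1 was 755 bp from the lower-coordinate end, or 2.47% of the span, and the peak covered the stretch from 328 to 1116 bp inside that end. The summit of Khdrbs1 was 1839 bp from the higher-coordinate end, or 4.43% of the span, with the peak from 1592 to 2513 bp inside it. Strand and exon positions of the pair were not used here, so these ends are not called 5′ or 3′ and the peaks are not assigned to exon, intron or untranslated region. The spans include every transcript model of the gene, so a given transcript may start or stop inside them.

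**Figure D3:**
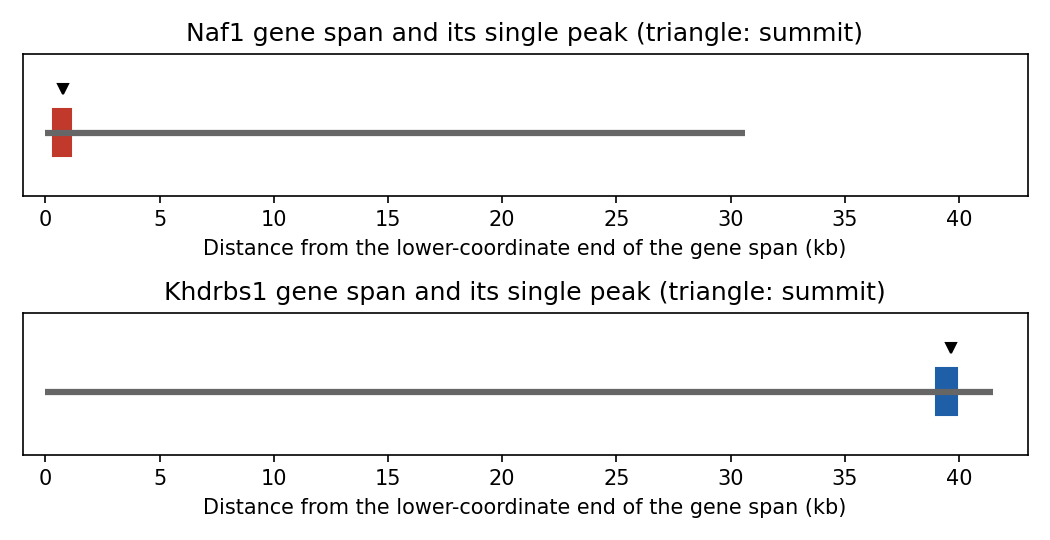
Gene spans of Naf1 and Khdrbs1 to scale, in kb from the lower-coordinate end, with the single peak as a coloured block and its summit as a triangle. The Naf1 summit lies 755 bp from the lower end and the Khdrbs1 summit 1839 bp from the higher end.

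A place near an end was not rare among single-peak genes. Within 1 kb of either end lay 994 of the 2628 summits (37.8%), and within 2 kb 1420 (54.0%). Short genes add to these shares. Among the 1836 genes with a span of at least 10 kb, a class that holds Naf1 and Khdrbs1, 28.1% of summits lay within 1 kb and 40.7% within 2 kb of an end. In the 20 of these genes with a fold enrichment of at least 15, the pair included, 15 summits lay within 1 kb (75%, Wilson 95% interval 53.1 to 88.8%) and 17 within 2 kb (85%, 64.0 to 94.8%).

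Strand could be read for 2125 of the 2628 single-peak genes from a table of RefSeq promoters, in which Naf1 and Khdrbs1 had 0 entries. Of these, 448 summits (21.1%, 19.4 to 22.9%) lay within 1 kb of the 5′ end of the gene and 443 (20.8%, 19.2 to 22.6%) within 1 kb of the 3′ end. With the limit to spans of at least 10 kb, the 5′ share was larger in each class of higher fold enrichment. It was 9.76% below 5-fold (n = 656), 19.9% from 5 to 10 (n = 747), 36.2% from 10 to 15 (n = 69) and 66.7% at 15 or more (n = 15, interval 41.7 to 84.8%). The 3′ share was 16.0% below 5-fold and 9.10%, 7.25% and 6.67% in the higher classes. The last 2 rest on 5 genes (interval 3.13 to 15.9%) and 1 gene (1.19 to 29.8%), so a steady fall is not shown. Without the limit on span the 3′ shares were 25.2%, 17.4%, 16.8% and 15.6%. Of 12 such genes with a peak of at least 15-fold within 2 kb of an end, 11 had it at the 5′ end, against 292 of 608 (48.0%) over all fold enrichments. Genes are not replicates, so these shares describe this list alone.

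**Figure D4:**
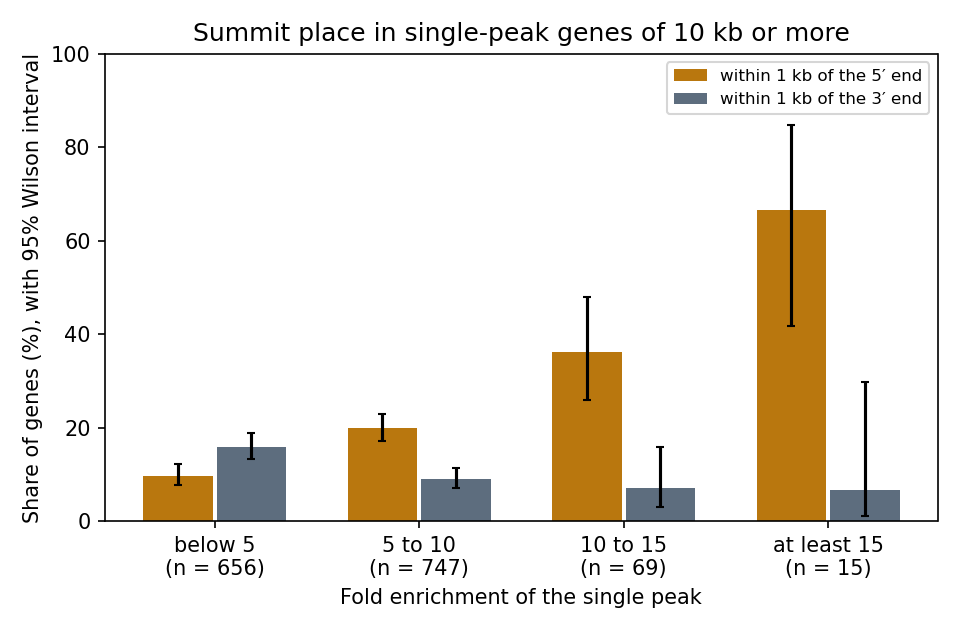
Share of single-peak genes, among those with a known strand and a span of at least 10 kb, whose summit lay within 1 kb of the 5′ or the 3′ end, by fold enrichment. Bars on the columns are Wilson 95% intervals, and the 5′ share goes from 9.76% to 66.7% from the lowest to the highest class.

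Genes of at least 10 kb with a single peak of at least 20-fold numbered 11, and after Naf1 and Khdrbs1 the next was Glud1, the mitochondrial glutamate dehydrogenase, at 26.8. Its summit had 67 fragments over 1.54 and lay 468 bp from the 5′ end. Others were Ccni, a cyclin gene, at 23.7 and 320 bp from the 5′ end, and Stt3b, a catalytic subunit of the oligosaccharyltransferase, at 21.3 and 539 bp. Eif3b, a subunit of a translation initiation factor, stood at 20.4 and 330 bp. Bace1, Lmnb1 and Tsc22d2, without a known strand here, had the summit 358, 244 and 937 bp from an end. In all, 10 of the 11 summits lay within 2 kb of an end, and the exception was Pdss2, 8535 bp away. Ccl21b, at 20.3, had its summit 413 bp from the 3′ end. Beyond the pair and Glud1, these genes were named after their values were seen.

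Among single-peak genes of any length, those next to the pair by fold enrichment were of several kinds. Gm40367 (46.3), Gm40369 (38.0), Gm36327 (32.7) and Gm40365 (30.6) lie close together on chromosome 6 between 47654879 and 47676865. Their peaks, 353 to 377 bp wide, had 42 to 60 fragments over 0.317 or 0.438, and reads were not traced to single copies there. Tmem158, which encodes a membrane protein, stood at 37.6 (30.9 to 45.3) on 109 fragments over 1.93. Cebpb, a transcription factor gene with a known part in decidualisation, stood at 36.8 (27.4 to 48.4) on 49 fragments over 0.359. The histone gene H3c14 stood at 32.7 (26.3 to 40.2) on 89 fragments over 1.75. Tmem158, Cebpb and H3c14 have spans of 1733, 1518 and 664 bp, so their peaks covered most of the gene, unlike those of Naf1 and Khdrbs1. The interval of Naf1 overlapped those of Gm40367, Khdrbs1, Gm40369, Tmem158 and Cebpb.

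Likeness was measured as the distance over 4 log2 values of the peak, each divided by its SD over the single-peak genes. The values were width, background, fold enrichment and the distance of the summit to the 5′ end, or to the nearest end where strand was not known. By this measure Naf1 and Khdrbs1 were each other's nearest gene, at a distance of 1.05, against a median of 6.47 from Naf1 and 5.85 from Khdrbs1 to the other genes. Cebpb came next for both, at 1.26 from Naf1 and 1.31 from Khdrbs1. The third was Gm40367 for Naf1 (1.54) and Tmem158 for Khdrbs1 (1.67). The pair was chosen on fold enrichment, which the background enters as well, and both genes were placed by the nearest end, so their closeness is in part given by the choice.

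The surroundings of the genes differed. Naf1 stood alone: the nearest peaks on chromosome 8 lay 2168 kb below and 2247 kb above its summit, each with 16 fragments, at 7.35-fold and 5.69-fold. Between them lay 22 other protein-coding genes, which by this definition held no summit. The nearest were Npy1r, a neuropeptide Y receptor gene 153 kb below, and Nat1, an arylamine acetyltransferase gene 600 kb above. Only 7 of the 2628 single-peak genes had a nearest peak farther off than Naf1, against a median distance of 46.3 kb. Khdrbs1 lay at 48.8 kb from its nearest peak, close to that median. That peak lay in Tmem39b, a membrane protein gene that ends 0.213 kb from the lower-coordinate end of the Khdrbs1 span and held 4 peaks of 3.91-fold to 12.3-fold. These lay beyond the end of Khdrbs1 away from its own peak. On the other side, Ptp4a2, a tyrosine phosphatase gene 67.3 kb away, held 0 peaks.

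Strong peaks were not typical of genes with 1 peak. The highest peak of a gene had a median fold enrichment of 5.25 in the 2628 genes with 1 peak, 6.48 in the 1262 with 2 peaks, 8.24 in the 2200 with 3 to 9 peaks and 12.4 in the 277 with 10 or more. A fold enrichment of at least 20 was reached by 21 single-peak genes (0.799%, Wilson 95% interval 0.523 to 1.22%) and by 23 genes with 10 or more peaks (8.30%, 5.60 to 12.2%). A gene with more peaks has more chances of a high one. At 40 or more stood 3 single-peak genes, which were Naf1, Gm40367 and Khdrbs1, and 1 gene with more peaks, Dlx5, at 42.6. These counts cover only summits in a single protein-coding gene. Khdrbs1 ranked 15 over all 21192 peaks, whose highest fold enrichment was 58.5. Of the peaks above it, only those of Naf1 and Gm40367 lay in a single protein-coding gene.

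Genes of NAF1's partners held weaker peaks or none. Naf1 was chosen on fold enrichment and had the highest of all protein-coding genes with a peak, so this follows from the choice. Of 11 genes of the H/ACA particle and telomerase, 4 held a peak. This was close to the 30.7% of all protein-coding genes with a summit. Over the shared core of the particle, Nop10 held 1 peak of 3.04-fold (2.25 to 4.04) on 46 fragments over 14.4. The gene of dyskerin, Dkc1, and those of the other core proteins, Nhp2 and Gar1, held none, and neither did Shq1, the dyskerin chaperone. Ruvbl2, an ATPase of particle assembly, held 3 peaks with a highest fold enrichment of 7.17 (4.74 to 10.5). One of its peaks was shared with another protein-coding gene, and its partner gene Ruvbl1 held none. Nolc1, a nucleolar chaperone of the particles, held 1 peak of 3.28-fold, and Parn, a ribonuclease that matures telomerase RNA, 1 of 4.70-fold. Tert and Wrap53, of the telomerase enzyme, held none. The median highest fold enrichment of the 4 genes was 3.99, against 6.61 over all protein-coding genes with a peak.

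Of the 4 box C/D particle genes, the sister class that guides 2′-O-methylation, 2 held a peak, against the 30.7% of all protein-coding genes. Fbl, the methyltransferase, stood at 3.65 (2.41 to 5.32) and Snu13 at 3.22 (2.16 to 4.63), while Nop56 and Nop58 held none. Fold enrichments in these lists lay under that of Naf1, which again follows from how it was chosen. Their backgrounds of 2.19 to 14.4 fragments were above its 0.438. A gene without a peak has no background in the list, so weak enrichment in it was not detectable and its absence is not shown.

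Relatives of SAM68 were split. Of 4 genes of the STAR family, 2 held a peak, against 30.7% of all protein-coding genes. The closest paralogues of SAM68, Khdrbs2 and Khdrbs3, held 0 peaks. Qk, which encodes the quaking splicing regulators, held 3 peaks with a highest fold enrichment of 5.77 (3.26 to 9.57). Sf1, the branch-point binding protein of the spliceosome, held 4, with the highest at 9.34 (7.82 to 11.1) on 131 fragments over 13.1.

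Genes of SAM68's signalling partners held a peak in 7 of 9 cases, against 30.7% of all protein-coding genes. The highest fold enrichments were those of the tyrosine kinases Fyn, at 17.6 (12.2 to 24.6), with 6 peaks, and Src, at 13.0 (8.93 to 18.2), with 9. The acetyltransferase gene Crebbp held 8 peaks and reached 10.4. Prmt1, the arginine methyltransferase that modifies SAM68, held 1 peak of 7.54-fold. The adaptor and lipid signalling genes Plcg1, Grb2 and Pik3r1 reached 6.36, 6.19 and 3.72, and Ptk6 and Nck1 held none. The best peak of Fyn had the same background as Khdrbs1, 0.875 fragments, but 32 fragments in place of 80.

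Of 5 known RNA targets of SAM68, 4 held a peak, against 30.7% of all protein-coding genes. Mtor, a growth kinase, reached 13.0 (8.83 to 18.4) and held 8 peaks. Ccnd1, a cyclin, reached 8.36, the surface receptor gene Cd44 7.77 and the apoptosis regulator Bcl2l1 4.83, with 3 peaks each. Nrxn3, a synaptic adhesion gene, held none. Over all 5 lists 19 of 33 genes held a peak, against the same 30.7%, and 6 of them held exactly 1, shared summits counted. Under a −log10 q of at least 10, 12 of the 33 did, against 17.6% of all protein-coding genes. Abundance of the transcripts was not matched. Both Naf1 and Khdrbs1 kept their peak under that limit, at a −log10 q of 143 and 120, which follows from their choice on strong peaks.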

How the data were processed

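acRIP-seq was analysed for 1 ac4C immunoprecipitation and 1 input library, grouped by their titles. The submitters' processing notes name HISAT2 2.2.1, MACS3 3.0.0a7 and build mm10, without roles or filters. The single peak list, in narrowPeak layout, was deposited by the authors with a score, a fold enrichment ratio, a −log10 p and a −log10 q per peak, called on the 1 immunoprecipitation library. Read totals were not used here. Fragments at a summit were the whole number for which (fragments + 1)/(background + 1) gave the authors' deposited fold, and the Poisson probability of more fragments gave their p. The largest relative miss was 8.58e-06, and recovery was tested on simulated data. The simulated backgrounds covered only the lower part of those in the list, which reached 114 fragments.

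Genes were taken from RefSeq GRCm38.p6 (49997 genes, 21900 protein-coding), and strand from the RefSeq promoter table (27025 genes). Naf1 and Khdrbs1 matched 0 promoter entries, so no sequence is printed. Named were the pair, the 10 highest single-peak genes, the 3 most alike, the adjacent protein-coding genes and every gene of 5 lists, of which 1 gene is left out and not reported here. The pair and the lists were chosen with earlier results of these data known. Fragments copied by PCR were not told from separate molecules. Python 3.11.15 and SciPy 1.17.1 were used.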

Additional observations from a re-analysis of the deposited data

How the results depend on the processing

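Of 33 values under alternatives, 17 stayed close to the reported value and 16 moved. Close meant within the 95% interval for fold enrichments, ranks by fold and shares, within 1.5 times for counts and ranks by width, and equal for distances. Both genes held 1 peak under every alternative tried. With the limits on −log10 q and on fold enrichment this was fixed by the choice of the pair on strong peaks. Those entries are among the 17 and say nothing about robustness. The steps of the background and the count of shared summits were chosen after the data were seen. Fold enrichment of Naf1, 56.3, was 183 with no pseudocount, 15.6 with a pseudocount of 5 and 43.2 with the background 1 step higher. That of Khdrbs1, 43.2, was 91.4, 14.5 and, 1 step lower, 56.3, all by construction. Khdrbs1 ranked 9 by fold enrichment with no pseudocount. With a −log10 q of at least 10, 1836 genes held a single peak. Among them ranks by width were 380 for Naf1 and 278 for Khdrbs1, against 214 and 158 among 2628. Single-peak genes were counted anew there, so the 1836 are not a subset of the 2628. List genes with a peak went from 19 to 12, a number that a stricter limit can only lower or leave. Peak midpoints lay 722 bp (Naf1) and 2053 bp (Khdrbs1) from the nearest end. The share of single-peak genes with the summit within 1 kb of the 5′ end, 21.1%, was 13.1% with 500 bp, 28.1% with 2 kb, 16.7% with spans of at least 10 kb and 18.5% with the q limit; the cause of the last 2 was not tested. No paired analysis was possible because each group had 1 library. The background of 1 and 2 steps limits both fold enrichments.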
